A study of Mus musculus with 12 samples.

Results

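The levels of 10 genes of the trophoblast lineage were followed in mouse embryonic stem (ES) cells held with an mTOR inhibitor, in a control line and in a knockout line of the de novo DNA methyltransferases. They were taken by symbol from the deposited expression tables, and all 10 (Elf5, Cdx2, Eomes, Tfap2c, Ascl2, Hand1, Gata3, Tead4, Krt8 and Krt18) were among the 54446 genes listed. The 12 RNA-seq libraries form 6 groups of 2. The control line E14 KH (here KH) and the Dnmt3a and Dnmt3b knockout line E14 DNMT3ABKO (here DNMT3ABKO) were each sampled without Ink128 (0 h) and after 72 h and 144 h of it. Ink128 is a catalytic inhibitor of mTOR, used to put ES cells into a dormant state that resembles diapause, the natural pause of the early embryo. The study's methods place KH2 and Dnmt3a/b knockout cells on mitomycin-treated feeder cells and E14 cells on gelatin without feeders, while the labels call both lines E14, so the culture of these libraries cannot be settled from the sources alone. Fibroblast markers were abundant in both lines at 0 h. Each genotype is a single line, so genotype and line history cannot be told apart. No culture kept without inhibitor for 72 h or 144 h is among these samples, so the effects of Ink128 and of time in culture cannot be told apart either. The study states that its experiments were repeated independently and that the time points of a replicate were handled side by side. The labels do not say so for single libraries, and the p-values measure only the spread between these libraries.

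The trophoblast is the outer layer of the blastocyst and forms the placenta, a route that ES cells do not normally take. Tead4, Gata3 and Tfap2c are transcription factors at the top of this program, switching on Cdx2 and then Eomes, Ascl2 and Hand1. Elf5, an ETS family factor, closes a positive loop with Cdx2 and Eomes in trophoblast stem cells, and its promoter is methylated and silent in ES cells, which is why it is described as a methylation gate between the embryonic and the trophoblast lineages. Krt8 and Krt18 encode the partner keratins of the trophectoderm and of other simple epithelia. The comparisons ask whether these genes move with mTOR inhibition, and whether they stand higher where de novo methylation is missing. DNA methylation itself was not measured in these libraries.

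The promoter of Elf5 is shown because it is the gate, and those of Krt8 and Krt18 because they were the members called between the lines at all 3 times. The windows run from 250 bases before to 50 bases after an annotated start, 5′ to 3′ on the strand of the gene, as RefSeq gives them on GRCm38.p6. Capitals mark CpG, the dinucleotide that the methyltransferases modify. Elf5 has a window at chr2:103411848-103412147 and another at chr2:103423818-103424117, both on the plus strand. Krt8 lies at chr15:102004293-102004592 on the minus strand and Krt18 at chr15:102027966-102028265 on the plus strand.
Elf5 upstream start: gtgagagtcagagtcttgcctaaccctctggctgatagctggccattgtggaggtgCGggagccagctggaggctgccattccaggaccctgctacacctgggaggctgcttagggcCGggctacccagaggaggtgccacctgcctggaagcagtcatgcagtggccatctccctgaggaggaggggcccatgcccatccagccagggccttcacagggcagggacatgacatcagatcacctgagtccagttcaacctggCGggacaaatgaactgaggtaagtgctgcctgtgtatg
Elf5 downstream start: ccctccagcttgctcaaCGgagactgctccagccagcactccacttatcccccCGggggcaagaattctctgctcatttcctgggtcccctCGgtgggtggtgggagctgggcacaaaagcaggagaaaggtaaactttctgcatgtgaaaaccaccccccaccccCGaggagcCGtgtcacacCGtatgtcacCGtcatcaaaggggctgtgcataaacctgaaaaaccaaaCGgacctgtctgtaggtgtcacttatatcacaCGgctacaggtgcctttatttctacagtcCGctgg
Krt8: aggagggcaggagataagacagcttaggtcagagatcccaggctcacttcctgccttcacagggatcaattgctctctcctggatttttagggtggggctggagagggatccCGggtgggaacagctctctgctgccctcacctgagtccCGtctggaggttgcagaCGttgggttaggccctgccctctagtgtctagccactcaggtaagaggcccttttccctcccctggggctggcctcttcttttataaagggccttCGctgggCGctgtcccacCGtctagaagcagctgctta
Krt18: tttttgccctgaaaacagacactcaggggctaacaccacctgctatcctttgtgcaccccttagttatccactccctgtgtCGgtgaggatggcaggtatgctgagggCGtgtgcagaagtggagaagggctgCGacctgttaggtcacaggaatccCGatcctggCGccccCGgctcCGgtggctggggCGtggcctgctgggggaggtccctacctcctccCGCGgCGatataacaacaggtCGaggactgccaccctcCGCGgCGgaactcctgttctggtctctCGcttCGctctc

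The upstream Elf5 window held 3 CpG and the downstream window 10, against a median of 7 over 32851 mouse promoter windows of this length. At least as many CpG as in the upstream Elf5 window were found in 76.7% of all windows. Krt8 had 6 CpG, close to that median, while Krt18 had 17. Among the other members with an entry, Eomes had 10, Cdx2 18, Gata3 22 and Ascl2 23. Entries were found for 7 of the 10 members (8 windows). A search of both strands used 4 short motifs, none of which contains another. The AP-2 motif GCCNNNGGC, bound by the family of Tfap2c, was found in Cdx2 (1 match), Gata3 (3 matches) and Krt18 (1 match) and in 16.6% of all windows. The TEAD motif CATTCC was found in the upstream Elf5 window and in 14.7% of all windows. The T-box motif GGTGTGA, of the family of Eomes, was found in the downstream Elf5 window and in 3.98% of all windows. The ETS motif GGAAGT, of the family of Elf5, was found in Krt8 and in 23.8% of all windows. A match describes the letters only.

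Values are TPM (transcripts scaled to a fixed library total), a level per transcript length in which every library sums to 1000000, so the number of reads behind each value is unknown. Rises and falls are thus changes in a share of a library's RNA. The study, normalizing to added spike-in RNA, reported that transcription fell globally under mTOR inhibition in wild-type and Dnmt3a/b knockout cells. A share can therefore rise while the amount per cell falls. Fold changes are log2 differences of TPM + 1, which understate the change of low genes. They come from limma over the 15727 genes that averaged 1 TPM or more, and a gene is called where its p, adjusted by Benjamini-Hochberg over all those genes, is under 0.05. Dnmt3a was at 7.35 to 21.9 TPM in the DNMT3ABKO libraries and at 54.7 to 144 TPM in the KH libraries. Dnmt3b was at 12.7 to 27.5 TPM and 142 to 258 TPM, so no DNMT3ABKO library reached the lowest KH library for either gene. None of 10 ES cell markers (such as Pou5f1, Nanog and Sox2) was under 1 TPM in both libraries of a group, and their summed level was 4244 to 6876 TPM. Fibroblast markers fell with time in both lines, as described with the marker lists. Annotated genes that overlap a member were listed at low levels: 1 overlaps Eomes (at most 0.427 TPM), 3 overlap Gata3 (at most 0.248 TPM), 1 overlaps Tead4 (at most 0.110 TPM) and 1 overlaps Krt8 (at most 0.00325 TPM). The sources used here do not say whether strand was used in counting.

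Of the 10 members, 7 were tested, Gata3 only because its DNMT3ABKO libraries of 72 h brought its mean over the filter. Elf5, Cdx2 and Hand1 had means of 0.0610, 0.478 and 0.264 TPM, under the filter, and their levels are described from the libraries themselves. With Ink128, the tested members that changed mostly fell. In KH, 5 of 7 were lower at 72 h than at 0 h and none was higher, where 19.5% of all tested genes were called lower and 28.3% higher. At 144 h, 5 of 7 were lower and none higher (23.9% and 27.4% of all genes). At both times no member was higher at an unadjusted p under 0.05 by limma. In DNMT3ABKO, 4 were lower and 1 (Gata3) was higher at 72 h (21.6% and 34.3% of all genes). All 7, Gata3 included, were lower at 144 h (26.2% of all genes, with 31.4% higher). At 144 h the call of Ascl2 was lost under several settings given with that gene. The median change of the 7 at 144 h was -0.96 in KH and -0.90 in DNMT3ABKO on the log2 scale, beside medians of 0.05 and 0.05 over all genes. From 72 h to 144 h fewer were called. Eomes was lower in KH and none was higher (15.6% and 7.24% of all genes), a call lost without any single library of those 4 (adjusted p of 0.0574 to 0.0927 by limma), and 1 member was higher at an unadjusted p under 0.05. In DNMT3ABKO, Gata3 and Tead4 were lower and Tfap2c was higher (18.5% and 8.81% of all genes). Both lines' 72 h and 144 h comparisons share their 0 h libraries.

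**Figure D1:**
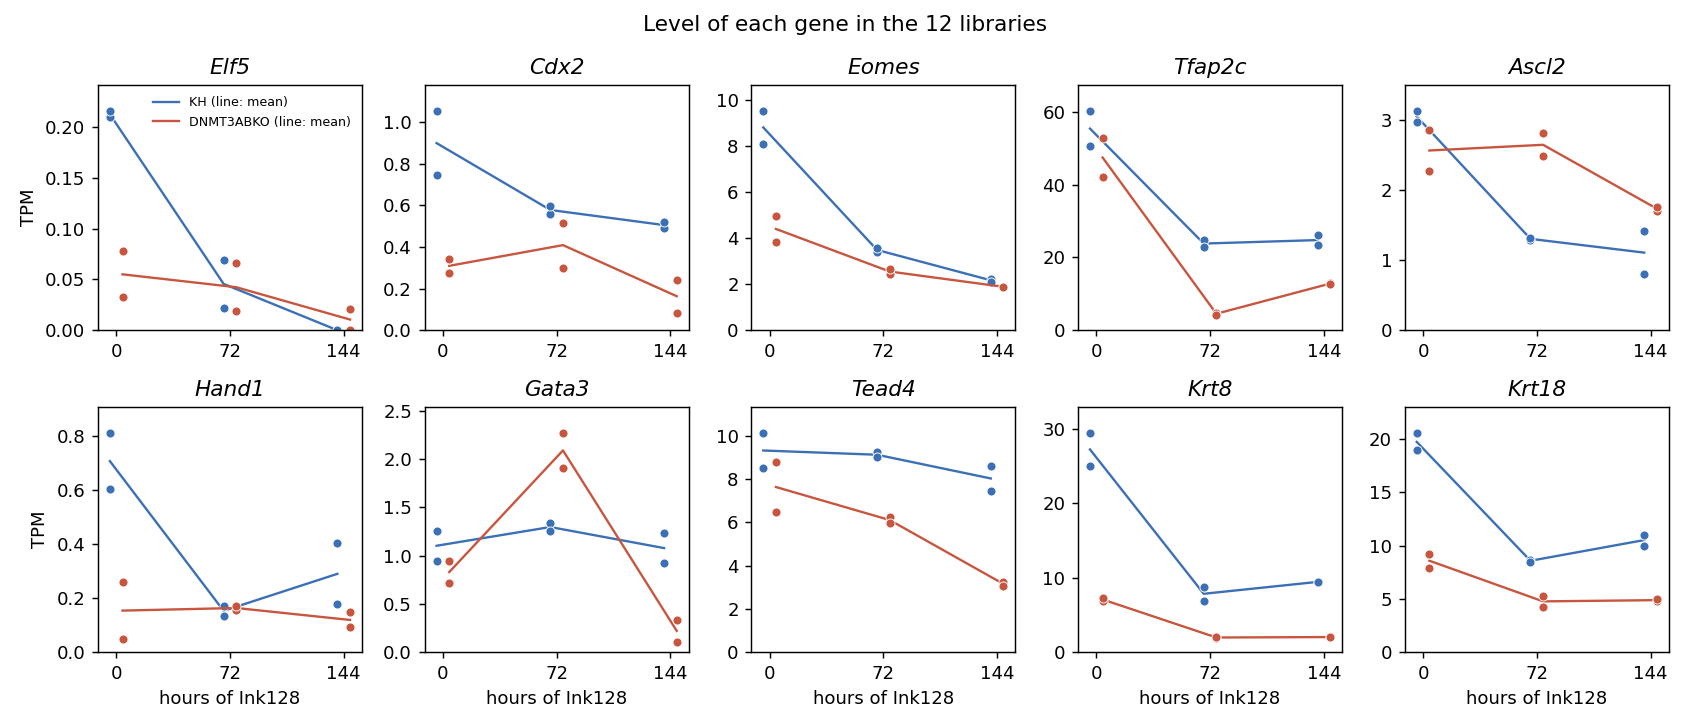
Level of each of the 10 genes in TPM (vertical axis, from 0, a scale of its own per gene) at 0, 72 and 144 h of Ink128 (horizontal axis). Points are single libraries, 2 per group, in blue for KH and red for DNMT3ABKO, and lines join group means. In 9 of the 10 panels the highest group is KH at 0 h, the exception being Gata3, and the 2 keratins stand lower in DNMT3ABKO than in KH at every time.

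Between the lines, the called members were lower in DNMT3ABKO with 1 exception. At 0 h, 3 of 7 (Eomes, Krt8 and Krt18) were lower and none was higher by limma, also at an unadjusted p under 0.05, where 4.14% of all tested genes were called lower and 4.92% higher. At 72 h, 4 (Tfap2c, Tead4, Krt8 and Krt18) were lower and 1 (Ascl2) was higher (10% and 9.26% of all genes). At 144 h, 5 (Tfap2c, Gata3, Tead4, Krt8 and Krt18) were lower and none was higher (15.5% and 11% of all genes), with 1 higher at an unadjusted p under 0.05. The median line difference of the 7 was -0.27, -0.51 and -0.90 at the 3 times, beside -0.05, -0.04 and -0.04 over all genes. The difference between the lines in the response to 72 h was called for 1 member higher and 1 lower in DNMT3ABKO (3.38% and 1.86% of all genes), and in the response to 144 h for 1 higher and 2 lower (4.89% and 3.7% of all genes). Without DNMT3ABKO at 0 h replicate 2, Tfap2c and Tead4 were also called lower at 0 h (adjusted p of 0.0359 and 0.0198), and 5039 rather than 1425 genes were called in all.

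**Figure D2:**
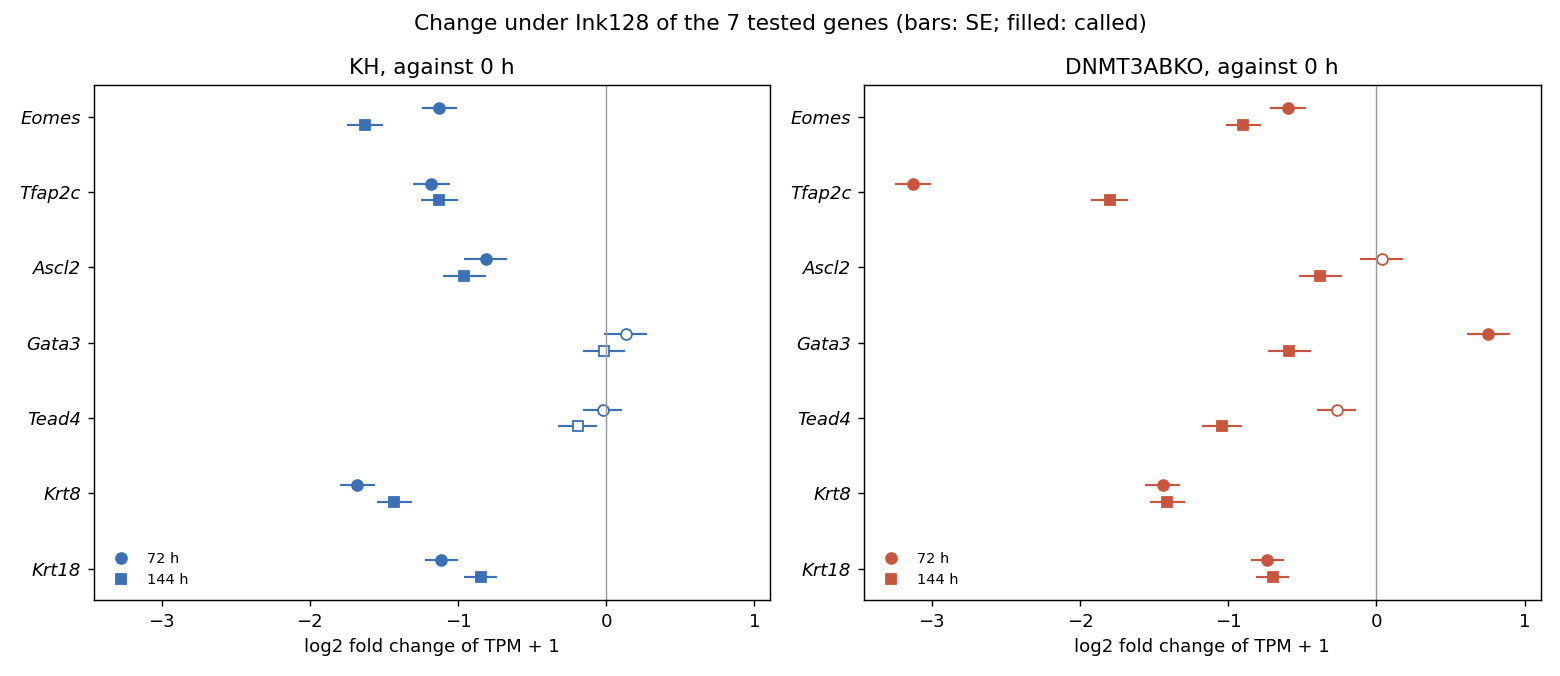
Change of the 7 tested genes against 0 h, as the log2 fold change of TPM + 1 (horizontal axis), in KH (left) and DNMT3ABKO (right). Circles are 72 h and squares 144 h, bars are the SE of the limma fit, and filled symbols are called. Tfap2c at 72 h reaches -3.13 in DNMT3ABKO and -1.18 in KH, and Gata3 in DNMT3ABKO is called higher at 72 h and lower at 144 h. Gata3 was tested only because of its DNMT3ABKO libraries of 72 h.

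Elf5 was at trace level throughout. The gene (ENSMUSG00000027186.14, chr2:103411688-103450989 on mm10, plus strand) was at 0.210 and 0.216 TPM in KH at 0 h, 0.0689 and 0.0222 TPM at 72 h, and listed at 0 in both libraries at 144 h. In DNMT3ABKO it was at 0.0778 and 0.0322 TPM at 0 h, 0.0187 and 0.0660 TPM at 72 h, and 0 and 0.0210 TPM at 144 h. The pair of KH libraries at 0 h stood above the other 10, and no DNMT3ABKO library was above the KH libraries of 0 h. From the second group in order down to the last (DNMT3ABKO at 0 h, KH at 72 h, DNMT3ABKO at 72 h, DNMT3ABKO at 144 h and KH at 144 h), each group's libraries overlapped those of the next. Over all 3 times the line difference was -0.06 on the log2 scale in the direction of less Elf5 in DNMT3ABKO, with p = 0.194 in an exact two-sided permutation test of the line labels within times (216 assignments, with a smallest possible p of 0.0278 because of ties). With no filter on low values, limma gave a difference at 0 h of -0.20 (SE 0.03, adjusted p = 0.0161 over 37364 genes) and a fall in KH of -0.21 at 72 h (SE 0.03, adjusted p = 0.00297). The response to 144 h differed between the lines by 0.22 in that fit (SE 0.05, adjusted p = 0.0347), the fall being the larger in KH, where both libraries of 144 h are listed at 0. The group means behind these values are 0.213, 0.0456 and 0 TPM in KH at 0, 72 and 144 h, and 0.0550 and 0.0105 TPM in DNMT3ABKO at 0 and 144 h. A stretch of 200 bases in an Elf5 transcript is 90.5% identical to Xpo7, at 43.3 to 62.2 TPM in these libraries, and how reads were divided between them was not tested.

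Only 1 gene within 100 kb of Elf5 reached 0.1 TPM in any library, Cat (catalase, chr2:103453849-103485160, minus strand). Cat stood at 28.3 and 33.3 TPM in KH at 0 h and 19.7 and 18.9 TPM at 144 h, and at 27.9 and 33.2 TPM and then 14.2 and 13.8 TPM in DNMT3ABKO. It was lower at 144 h than at 0 h in both lines, by limma -0.64 (adjusted p = 0.000416) in KH and -1.07 (adjusted p = 9.25e-06) in DNMT3ABKO. The lines overlapped at 0 h, where the difference was -0.01 (adjusted p = 0.949). Cat was lower in DNMT3ABKO by limma at 72 h (-0.48, adjusted p = 0.00814) and at 144 h (-0.44, adjusted p = 0.00911).

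Cdx2 (chr5:147300805-147307270, minus strand), the caudal homeobox factor that sets trophectoderm identity, was also low. It was at 1.05 and 0.747 TPM in KH at 0 h, 0.561 and 0.596 TPM at 72 h, and 0.489 and 0.522 TPM at 144 h. Corresponding DNMT3ABKO values were 0.277 and 0.342 TPM, 0.301 and 0.518 TPM, and 0.0842 and 0.243 TPM. At each time both DNMT3ABKO libraries lay below both KH libraries. The mean difference between the lines was -0.36 on the log2 scale (exact permutation test within times, two-sided p = 0.00926, the smallest that 216 assignments allow). In the fit with no filter, Cdx2 was lower in DNMT3ABKO at 0 h by limma (-0.53, SE 0.11, adjusted p = 0.0424), with values of -0.17 at 72 h (adjusted p = 0.463) and -0.38 at 144 h (adjusted p = 0.0620).

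Eomes (chr9:118478212-118486132, plus strand), a T-box factor that keeps trophoblast stem cells and also acts in the primitive streak, fell with Ink128 in both lines. In KH it was at 8.11 and 9.52 TPM at 0 h, 3.39 and 3.60 TPM at 72 h, and 2.25 and 2.10 TPM at 144 h. The DNMT3ABKO levels were 3.85 and 4.96 TPM, 2.46 and 2.64 TPM, and 1.88 and 1.90 TPM. None of the 6 groups overlapped its neighbour in the order of levels, and KH was the higher line at every time. By limma, the fall to 144 h was -1.63 in KH (SE 0.12, adjusted p = 3.42e-06) and -0.90 in DNMT3ABKO (SE 0.12, adjusted p = 0.000132). The line difference was -0.87 at 0 h (SE 0.12, adjusted p = 0.00163), -0.34 at 72 h (adjusted p = 0.0806) and -0.14 at 144 h (adjusted p = 0.456). The difference at 0 h was not called when only those 4 libraries entered the fit (adjusted p = 0.0793). The fall to 144 h was smaller in DNMT3ABKO by 0.73 (SE 0.17, adjusted p = 0.0269 for the difference in response by limma). That call was lost without any of 5 libraries (adjusted p of 0.0714 to 0.0899), namely KH at 0 h replicate 2 and the 4 libraries of both lines at 144 h, and in the fit of those groups alone (0.0886).

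Primitive streak markers moved beside Eomes in part. Of 10 such genes 3 were tested (T, Bmp4 and Kdr), and the summed level of the 10 at 0 h was 49.1 to 53.8 TPM in KH and 24.5 to 26.7 TPM in DNMT3ABKO. T (brachyury) and Bmp4 were the called genes at 0 h, both lower in DNMT3ABKO by limma, at -1.40 (adjusted p = 5.05e-05) and -0.80 (adjusted p = 0.00191). At 72 h, when Eomes was lower in both lines, T was lower too, but Bmp4 and Kdr were higher than at 0 h in each line, and the sums were 51.1 to 56.0 TPM in KH and 33.2 to 35.2 TPM in DNMT3ABKO. At 144 h the sums were 20.9 to 23.1 TPM and 15.9 to 16.1 TPM, with 1 marker at 0 in both libraries of each group. In bulk RNA, fewer cells of a type and less RNA per cell cannot be told apart, and the part of such cells in the level of Eomes was not tested.

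Tead4 (chr6:128224288-128300823, minus strand) carries the transcriptional output of Hippo signalling and is needed for trophectoderm. It was at 8.53 and 10.1 TPM in KH at 0 h, 9.24 and 9.01 TPM at 72 h, and 8.59 and 7.47 TPM at 144 h. In DNMT3ABKO it was at 6.50 and 8.77 TPM, 6.24 and 5.98 TPM, and 3.23 and 3.08 TPM. The KH groups lay close together, the lines overlapped at 0 h, and the DNMT3ABKO libraries of 144 h were the lowest of all 12. The value in KH at 144 h was -0.19 against 0 h (SE 0.13, adjusted p = 0.255), whereas in DNMT3ABKO the change was -1.04 (SE 0.13, adjusted p = 8.99e-05 by limma). The DNMT3ABKO level was below that of KH at 144 h by limma (-1.12, SE 0.13, adjusted p = 0.000207) and at 72 h (-0.51, SE 0.13, adjusted p = 0.0238). The call at 72 h was lost without any single library of 72 h (adjusted p of 0.0922 to 0.125) and with no filter (0.0552). The responses to 144 h differed by -0.85 (SE 0.19, adjusted p = 0.0202), a call that was lost without KH at 0 h replicate 1, KH at 144 h replicate 1 or either DNMT3ABKO library of 144 h (adjusted p of 0.0594 to 0.0874) and in the fit of those groups alone (0.0751).

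Of 20 listed Hippo pathway genes 18 were matched and tested. None was called between the lines at 0 h by limma (2 were lower at an unadjusted p under 0.05). At 144 h, 4 were lower in DNMT3ABKO and none was higher (15.5% and 11% of all genes), among them Amotl2, a junction protein that holds Yap1 in the cytoplasm, at -1.21 (adjusted p = 1.16e-07 by limma), and the kinase Lats1 at -0.63 (adjusted p = 0.00386). Amotl2 had group means of 74.7 TPM in KH and 72.0 TPM in DNMT3ABKO at 0 h and of 60.6 and 25.7 TPM at 144 h. The responses of Amotl2 to 144 h differed by -1.15 between the lines (SE 0.08, adjusted p = 6.76e-06 by limma), the larger fall being in DNMT3ABKO.

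Tfap2c (chr2:172549593-172558622, plus strand), an AP-2 factor of trophectoderm that is also expressed in naive ES cells and germ cells, had the highest mean of the members over the 12 libraries, and its fall at 72 h was larger in DNMT3ABKO. In KH it was at 50.6 and 60.2 TPM at 0 h, 24.7 and 22.9 TPM at 72 h, and 23.4 and 26.1 TPM at 144 h. Its levels in DNMT3ABKO were 42.0 and 52.9 TPM, then 4.84 and 4.19 TPM, then 12.9 and 12.8 TPM. The lines overlapped at 0 h and were apart at both later times, with DNMT3ABKO lowest at 72 h, where its mean (4.52 TPM) was below those of Tead4 (6.11 TPM) and Krt18 (4.77 TPM). By limma, the change to 72 h was -1.18 in KH (SE 0.12, adjusted p = 5.83e-05) and -3.13 in DNMT3ABKO (SE 0.12, adjusted p = 9.16e-08). The difference of these responses was -1.95 (SE 0.18, adjusted p = 0.000538) and remained called without each library in turn. From 72 h to 144 h Tfap2c rose in DNMT3ABKO by 1.33 (SE 0.12, adjusted p = 3.81e-05), while in KH the value was 0.05 (SE 0.12, adjusted p = 0.814). The line difference was -0.22 at 0 h (adjusted p = 0.300), -2.17 at 72 h (adjusted p = 1.24e-06) and -0.90 at 144 h (adjusted p = 0.000576). The responses to 144 h differed by -0.67 (SE 0.18, adjusted p = 0.0428), a call that was lost without any of 9 libraries (all but KH at 0 h replicate 2 and the DNMT3ABKO libraries of 0 h, with adjusted p of 0.0589 to 0.144), with no filter (0.0837), in the fit of those groups alone (0.0993) and with a block for the replicate number (0.0721).

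Gata3 (chr2:9857078-9890034, minus strand), a zinc finger factor that acts in parallel with Cdx2, stayed near 1 TPM in KH. It was at 0.945 and 1.26 TPM at 0 h, 1.33 and 1.26 TPM at 72 h, and 0.927 and 1.23 TPM at 144 h. Corresponding DNMT3ABKO values were 0.719 and 0.941 TPM, then 1.91 and 2.27 TPM, then 0.333 and 0.109 TPM. KH at 0 h overlapped both later KH groups, whereas in DNMT3ABKO the 72 h libraries were the highest of all 12 and the 144 h libraries the lowest. Gata3 passed the filter only through its DNMT3ABKO libraries of 72 h, so its tests are not independent of that high group. By limma, Gata3 in DNMT3ABKO rose to 72 h (0.76, SE 0.14, adjusted p = 0.00142) and was below its 0 h level at 144 h (-0.59, SE 0.14, adjusted p = 0.00553). Against KH it was lower at 144 h (-0.77, SE 0.14, adjusted p = 0.00345). At 72 h both DNMT3ABKO libraries lay above both KH libraries, with a value of 0.43 (SE 0.14, adjusted p = 0.0658) that was called with median-ratio scaling (0.0459), with those groups alone (0.0349) and without either DNMT3ABKO library of 0 h (0.0490 and 0.0493). From 72 h to 144 h the change in DNMT3ABKO was -1.34 (SE 0.14, adjusted p = 9.20e-05 by limma). At these low levels, a pseudocount of 0.1 TPM gave larger values for the called changes. These were 1.24, -1.62 and -1.96 for the first 3, and -2.86 from 72 h to 144 h, all still called. The fall from 0 h to 144 h in DNMT3ABKO was not called without its 144 h replicate 2. The difference between the lines in the response was 0.62 at 72 h (adjusted p = 0.123) and -0.57 at 144 h (adjusted p = 0.123), so it was not shown to differ.

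Ascl2 (chr7:142966829-142969264, minus strand), an imprinted bHLH factor of the ectoplacental cone and spongiotrophoblast, was the member called higher in DNMT3ABKO at 72 h. In KH it was at 3.13 and 2.98 TPM at 0 h, 1.29 and 1.32 TPM at 72 h, and 1.41 and 0.806 TPM at 144 h. In DNMT3ABKO it was at 2.86 and 2.28 TPM, 2.81 and 2.48 TPM, and 1.71 and 1.76 TPM. Both KH libraries lay below both DNMT3ABKO libraries at 72 h and at 144 h, and the DNMT3ABKO libraries of 0 h and 72 h overlapped. By limma, the change to 72 h was -0.81 in KH (SE 0.14, adjusted p = 0.00129) and 0.04 in DNMT3ABKO (adjusted p = 0.846), and the responses differed by 0.85 (SE 0.20, adjusted p = 0.0426). At 72 h the level was higher in DNMT3ABKO by 0.66 (SE 0.14, adjusted p = 0.0105). These calls are close to the threshold: the difference in response was lost without any of 8 libraries (both KH at 0 h, and every library of 72 h and of DNMT3ABKO at 144 h, with adjusted p of 0.0714 to 0.148), with a pseudocount of 0.1 TPM (0.0769), with no filter (0.105) and with a block for the replicate number (0.0618). The level at 72 h was not called without KH replicate 1, KH replicate 2 or DNMT3ABKO replicate 1 of 72 h (adjusted p of 0.0585 to 0.0791). The fall to 144 h in DNMT3ABKO (-0.38, SE 0.14, adjusted p = 0.0455) was lost without any of 9 libraries (all but DNMT3ABKO at 0 h replicate 2 and the KH libraries of 144 h, with adjusted p of 0.0581 to 0.213), with a pseudocount of 0.1 TPM (0.0746), with no filter (0.102) and with those groups alone (0.0985).

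Hand1 (chr11:57828705-57832818, minus strand), a bHLH factor of trophoblast giant cells and of lateral mesoderm, was under 1 TPM in all libraries. It was at 0.603 and 0.809 TPM in KH at 0 h, 0.171 and 0.135 TPM at 72 h, and 0.177 and 0.402 TPM at 144 h. The DNMT3ABKO libraries had 0.0474 and 0.260 TPM, 0.155 and 0.172 TPM, and 0.147 and 0.0917 TPM. The KH libraries of 0 h stood above the other 10, and the replicates of several groups differed widely. The mean line difference was -0.25 on the log2 scale (exact permutation test within times, two-sided p = 0.0556, smallest possible 0.00926). In the fit with no filter, Hand1 was lower in DNMT3ABKO at 0 h by limma (-0.57, SE 0.11, adjusted p = 0.0350) and lower at 72 h than at 0 h in KH (-0.56, SE 0.11, adjusted p = 0.00985).

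Krt8 (chr15:101996698-102004482, minus strand) and Krt18 (chr15:102028180-102032027, plus strand), neighbouring genes whose proteins pair into one filament, gave the steadiest difference between the lines. Krt8 was at 25.1 and 29.4 TPM in KH at 0 h, 8.83 and 6.89 TPM at 72 h, and 9.45 and 9.46 TPM at 144 h. Its levels in DNMT3ABKO were 6.89 and 7.29 TPM, 1.93 and 2.03 TPM, and 2.07 and 2.01 TPM. At each time DNMT3ABKO lay below KH without overlap, and its libraries of 0 h overlapped those of KH after 72 h. The line difference by limma was -1.80 at 0 h (SE 0.12, adjusted p = 9.85e-06), -1.56 at 72 h (SE 0.12, adjusted p = 1.04e-05) and -1.78 at 144 h (SE 0.12, adjusted p = 2.02e-06). The DNMT3ABKO mean was thus 0.260 times that of KH at 0 h. Both lines fell with Ink128, to 72 h by limma -1.68 in KH (adjusted p = 4.58e-06) and -1.44 in DNMT3ABKO (adjusted p = 6.57e-06), and the difference of these falls was 0.24 (SE 0.17, adjusted p = 0.519).

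Krt18 was at 18.9 and 20.6 TPM in KH at 0 h, 8.67 and 8.50 TPM at 72 h, and 11.04 and 10.01 TPM at 144 h. In DNMT3ABKO it was at 7.95 and 9.23 TPM, 4.23 and 5.31 TPM, and 4.79 and 4.99 TPM. It had the pattern of Krt8 with smaller steps, and the lines were again apart at each time. The line difference was -1.12 at 0 h (SE 0.11, adjusted p = 0.000199 by limma), -0.74 at 72 h (adjusted p = 0.00143) and -0.97 at 144 h (adjusted p = 0.000176). Krt8 and Krt18 were called in these comparisons under every alternative setting and without each library in turn. A processed copy of Krt8, Krt8-ps, is 98.6% identical to it over 941 bases and was listed at 0.0425 to 1.23 TPM. A copy of Krt18, Gm5200, is 90.4% identical over 1267 bases and was listed at 0 to 0.0274 TPM. How reads were divided between each gene and its copy is uncertain.

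**Figure D3:**
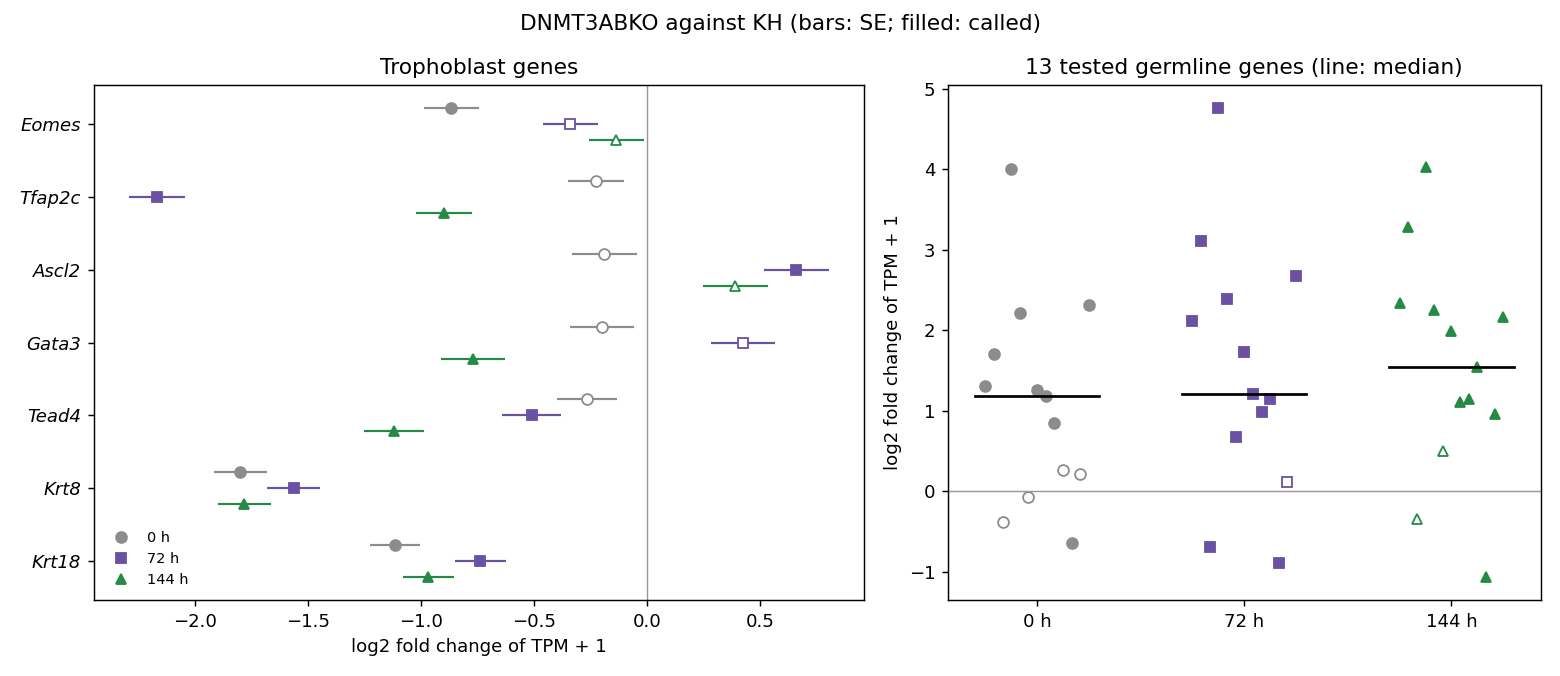
Difference between DNMT3ABKO and KH at 0, 72 and 144 h, as the log2 fold change of TPM + 1, for the 7 tested members (left, horizontal axis, bars are the SE) and for 13 tested germline genes described as silenced by promoter methylation (right, vertical axis, 1 symbol per gene, black line the median). Filled symbols are called. The called members lie below 0 except Ascl2 at 72 h, and the germline medians lie at 1.19, 1.21 and 1.55. Asz1 and Slc25a31 are among the 13 only through their DNMT3ABKO libraries.

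Germline genes described as silenced by promoter methylation were read beside the members. Methylation was not measured, and some of these genes were expressed in KH at 0 h, such as Rpl10l (mean 27.0 TPM) and Ddx4 (mean 10.2 TPM). Of 16 such genes 13 were tested. Asz1 and Slc25a31 passed the filter only through their DNMT3ABKO libraries, being under 1 TPM in every KH library. Tdrd1, Brdt and Tex101 did not pass it. At 0 h their means in KH and DNMT3ABKO were 1.01 and 0.186, 0.212 and 0.120, and 0.543 and 0.959 TPM. The counts that follow thus depend in part on the filter. By limma, 8 were higher and 1 lower in DNMT3ABKO at 0 h (4.92% and 4.14% of all genes). At 72 h, 10 were higher and 2 lower (9.26% and 10%), and at 144 h, 10 were higher and 1 lower (11% and 15.5%). Fkbp6, a co-chaperone of the piRNA pathway, had group means of 1.26 TPM in KH and 35.4 TPM in DNMT3ABKO at 0 h (4.01, adjusted p = 1.92e-07). Tuba3a, a testis tubulin, had means of 4.47 and 26.2 TPM (2.32, adjusted p = 4.38e-07). The called exception at 0 h was Sycp3, a protein of the meiotic chromosome axis, at 3.39 TPM in KH and 1.79 TPM in DNMT3ABKO (-0.64, adjusted p = 0.0119). At 72 h Ddx4 also stood lower in DNMT3ABKO, with means of 14.9 TPM in KH and 8.83 TPM in DNMT3ABKO. The summed level of the 16 genes was 63.8 to 68.3 TPM in KH and 182 to 208 TPM in DNMT3ABKO at 0 h. The list also moved with Ink128 within KH, with 9 of 13 higher at 72 h and none lower by limma (28.3% and 19.5% of all genes). A link of these genes or of Elf5 to methylation was not tested.

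Other regulators of trophoblast stem cells did not move in a single direction. All 20 listed genes were tested, 1 of which (Esrrb) is also on the list of ES cell markers. At 144 h against 0 h, 6 were higher and 4 lower in KH, and 6 higher and 4 lower in DNMT3ABKO, shares near those of all tested genes (27.4% higher and 23.9% lower in KH, 31.4% and 26.2% in DNMT3ABKO). On the log2 scale Sox21, a Sox family factor, rose by 1.84 in KH and 1.63 in DNMT3ABKO (limma, adjusted p = 2.30e-07 and 2.73e-07), and Klf5, shared with the ES cell program, rose by 0.75 and 1.05 (adjusted p = 0.00110 and 0.000100). Fgfr2, the receptor through which FGF4 keeps trophoblast stem cells dividing, was lower by limma at -0.89 in KH and -2.04 in DNMT3ABKO (adjusted p = 4.08e-05 and 7.03e-08), from means of 23.9 and 21.5 TPM at 0 h. Furin, a proprotein convertase, was lower at -0.99 and -1.33 (adjusted p = 5.86e-06 and 4.23e-07).

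Between the lines, 4 of these 20 regulators were lower in DNMT3ABKO at 0 h and none was higher by limma (4.14% and 4.92% of all genes), with 1 higher at an unadjusted p under 0.05. They were led by Peg10, an imprinted gene needed for the placenta, at -1.41 (adjusted p = 0.000102), and Id2, an inhibitor of bHLH factors, at -0.69 (adjusted p = 0.0113). At 144 h, 7 were lower and none higher (15.5% and 11% of all genes), none being higher at an unadjusted p under 0.05, and they were led by Fgfr2 at -1.29 (adjusted p = 5.17e-06) and Id2 at -1.07 (adjusted p = 0.000290). The response to 72 h differed most for Peg10, whose mean was 83.3 TPM and then 65.2 TPM in KH but 31.2 TPM and then 122 TPM in DNMT3ABKO (2.30, SE 0.18, adjusted p = 0.000349).

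Products of mature placental cells were nearly absent. Of 21 such genes (among them Tpbpa, Gcm1 and several placental prolactins), 17 to 20 were below 1 TPM in both libraries of each group and 8 to 11 were at 0 in both. The tested ones were Krt19 and Igf2, both widely expressed outside the placenta. Krt19, a keratin of simple epithelia like Krt8, had means of 5.79, 1.28 and 1.32 TPM in KH and of 2.65, 0.436 and 0.203 TPM in DNMT3ABKO. It was lower in DNMT3ABKO at 0 h by limma (-0.89, SE 0.18, adjusted p = 0.0132) and at 144 h (-0.95, SE 0.18, adjusted p = 0.00387). Igf2 had means of 13.5, 8.19 and 6.18 TPM in KH and of 11.9, 7.23 and 3.29 TPM in DNMT3ABKO, and was lower at 144 h than at 0 h in both lines (-1.01 and -1.57, adjusted p = 0.000182 and 5.90e-06 by limma).

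**Figure D4:**
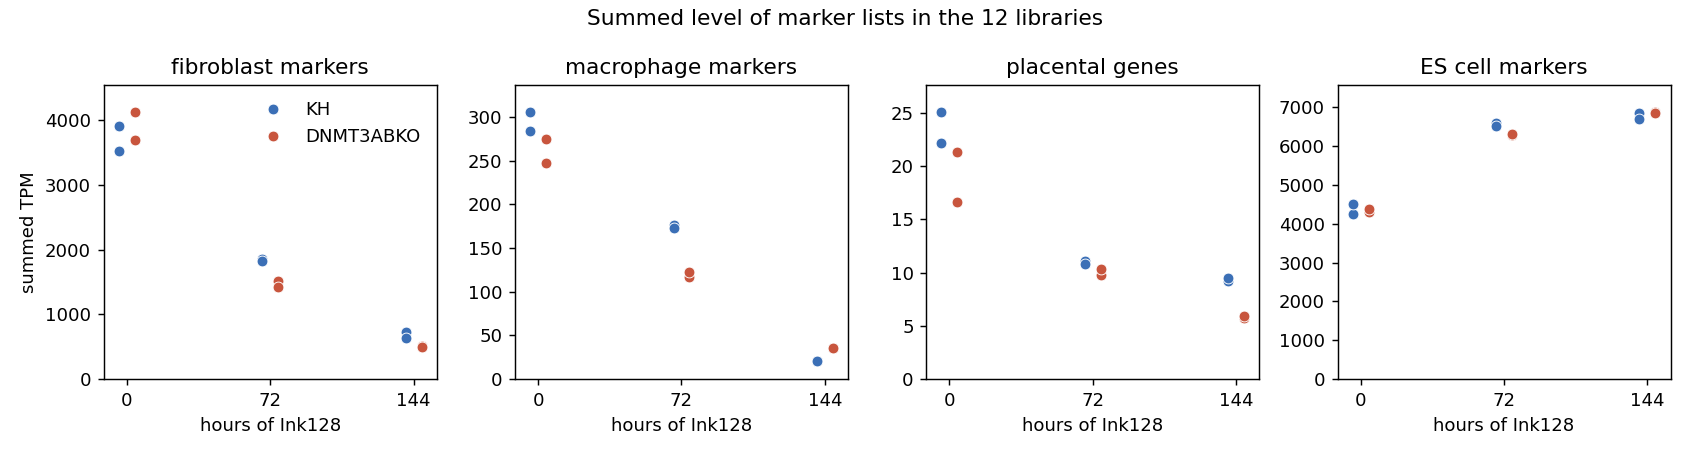
Summed TPM of 4 marker lists (vertical axes, each from 0 on a scale of its own) at 0, 72 and 144 h of Ink128 (horizontal axis). Each point is a library, in blue for KH and red for DNMT3ABKO. Fibroblast sums fall from 3527 to 4128 TPM at 0 h to 490 to 732 TPM at 144 h, most of the latter being Fn1, while ES cell marker sums rise.

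Markers of fibroblasts and other cells also changed with time, in part unlike the members. Fibroblast markers summed to 3527 to 3906 TPM in KH and 3691 to 4128 TPM in DNMT3ABKO at 0 h, to 1824 to 1862 and 1416 to 1508 TPM at 72 h, and to 642 to 732 and 490 to 515 TPM at 144 h. Most of the 144 h sums was Fn1, at 440 to 526 TPM in KH and 283 to 292 TPM in DNMT3ABKO. The median log2 change of the tested markers from 0 h to 144 h was -3.68 in KH and -3.74 in DNMT3ABKO. Of 21 tested (23 listed), 20 were lower at 144 h than at 0 h in KH and 21 in DNMT3ABKO (23.9% and 26.2% of all genes). From 72 h to 144 h, 20 were lower in KH and 21 in DNMT3ABKO (15.6% and 18.5% of all genes). Of the 7 tested members, 1 was lower over that step in KH, and 2 were lower and 1 higher in DNMT3ABKO. None of the 23 was at 0 in both libraries of a group. Between the lines at 0 h the fibroblast sums overlapped. By limma 4 of the 21 were higher in DNMT3ABKO and none lower (4.92% and 4.14% of all genes), with none lower at an unadjusted p under 0.05. Macrophage markers summed to 283 to 306 and 247 to 274 TPM at 0 h, 173 to 176 and 117 to 122 TPM at 72 h, and 20.5 to 20.7 and 35.6 to 36.3 TPM at 144 h, with 1 of the 10 at 0 in both KH libraries of 144 h. Most of the 144 h sums was Cd68, at 14.8 to 15.3 TPM in KH and 21.8 to 22.7 TPM in DNMT3ABKO. Primitive endoderm markers, 3 of 10 tested, summed to 25.4 to 28.0 and 21.8 to 26.1 TPM at 0 h and to 10.6 to 17.1 and 8.33 to 9.36 TPM at 144 h. ES cell markers rose as a share of the RNA, to sums of 6700 to 6876 TPM at 144 h. Called higher at 144 h were 9 of 10 in KH and 8 of 10 in DNMT3ABKO (27.4% and 31.4% of all genes). The part of these cells in the falls of the trophoblast genes, or in the differences of those genes between the lines, was not tested.

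Across the 12 libraries, which share their time points and lines, the members most alike in log2(TPM + 1) were Krt8 and Krt18 (Pearson r of 0.989), and the least alike were Tfap2c and Gata3 (-0.267). Elf5 was closest to Eomes among the members (0.903). Predicted genes, unnamed transcripts, pseudogenes and mitochondrial, microRNA and small nucleolar RNA genes were left out of the wider search. Over the other tested genes, those nearest to Elf5 were Sprr2a2 (0.947), Pdcd11 (0.930) and Klhl21 (0.923). For Krt8 they were Krt18, Farsa (0.974) and Llgl1 (0.972), and for Krt18 they were Krt8, Farsa (0.965) and Phb2 (0.962). Tfap2c was nearest to Ifitm1 (0.978), Inpp5d (0.975) and Sema4b (0.974). The correlation coefficients describe 12 libraries in 6 groups of 2 and carry no test.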

How the data were processed

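Total RNA of mouse ES cells was sequenced after ribosomal depletion. The authors trimmed reads with cutadapt, aligned them to mm10 with STAR and estimated levels with StringTie on GENCODE annotation (the submitters' processing notes give cutadapt 2.4, STAR 2.7.3a and StringTie 2.0), and deposited TPM values per gene and library. Those TPM values were read here as deposited, over 54446 gene identifiers, and values of an identifier listed more than once (9 to 16 repeats per library) were summed. No spike-in was among the genes listed, and depth per library is unknown. The study's count model needs counts, so log2(TPM + 1) was fitted with limma 3.58.1 (R 4.3.3; trend, a coefficient per group) on the 15727 genes averaging 1 TPM or more. There were 11 contrasts, each adjusted by Benjamini-Hochberg over all tested genes, and a gene was called at an adjusted p under 0.05. Members under the filter had an exact permutation test of the line labels within times. Tested on simulated data for KH at 72 h against 0 h (15727 genes, 200 changed by a log2 change of 1), the fit recovered 88.5% of them, and 4.84% of its 186 calls were false. The simulated noise was normal and independent between genes, and 7520 genes were called in the real comparison. The false share in these libraries is therefore not shown by it.

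The members and lists were chosen with earlier results of these data known. All members were named. From the other lists, the 2 highest and 2 lowest called genes of a described contrast were named, besides genes within 100 kb of Elf5 at 0.1 TPM or more. For Elf5 and the 3 members with the widest range of group means, the 3 tested genes with the highest Pearson r were named. Predicted genes, unnamed transcripts, pseudogenes and mitochondrial, microRNA and small nucleolar RNA genes were left out of that search. Copies were searched with BLAST 2.17.0 (at least 90% identity over 200 bases). Other settings tried were no filter, a pseudocount of 0.1 TPM, median-ratio scaling, a fit of the contrast's own groups, a replicate block, and leaving out each library. Dnmt3a and Dnmt3b levels served as the check of the labels.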

Additional observations from a re-analysis of the deposited data

Results flagged for a closer look

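For 5 responses of the trophoblast genes to Ink128 the lines differed by the limma test of the difference itself. Tfap2c changed by -1.18 in KH and -3.13 in DNMT3ABKO at 72 h, a difference of -1.95 (adjusted p = 0.000538), and by -1.13 and -1.80 at 144 h, a difference of -0.67 (adjusted p = 0.0428). Ascl2 changed by -0.81 and 0.04 at 72 h, a difference of 0.85 (adjusted p = 0.0426). Eomes changed by -1.63 and -0.90 at 144 h, a difference of 0.73 (adjusted p = 0.0269). Tead4 had values of -0.19 and -1.04 at 144 h, a difference of -0.85 (adjusted p = 0.0202). The 72 h difference of Tfap2c was called without each library in turn, and the other 4 were each lost without at least 4 libraries taken singly. With 2 libraries in a group, no library could be judged to stand apart from its own group.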

How the results depend on the processing

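Of the 11 comparisons, the number of the 7 tested members called moved by over 1.5 times in those given here. At 144 h against 72 h in KH it was 1 and became 2 with median-ratio scaling (0 to 1 without single libraries). Between the lines at 0 h it was 3 and became 6 with no filter, which also tests Elf5, Cdx2 and Hand1 (3 to 5 without single libraries). For the difference in the 72 h response it was 2 and became 1 with a pseudocount of 0.1 TPM, with no filter and with the replicate block (1 to 3 without single libraries). For the difference in the 144 h response it was 3 and became 0 when only those groups were fitted (0 to 3 without single libraries). Without single libraries it was 3 to 5 at 144 h against 72 h in DNMT3ABKO (3 with all) and 3 to 7 between the lines at 72 h (5 with all). Elf5 kept its line difference between -0.07 and -0.05 without single libraries.

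No called member changed direction. Values that changed sign were uncalled in both fits. With median-ratio scaling Ascl2 in DNMT3ABKO at 72 h against 0 h was -0.0661. With a pseudocount of 0.1 TPM the difference in response of Krt8 was -0.00196 at 72 h and -0.235 at 144 h. Without single libraries, the values that crossed 0 ranged from -0.135 to 0.0883 for Tead4 in KH at 72 h, from -0.125 to 0.0919 for Gata3 in KH at 144 h, from -0.0245 to 0.131 for Tfap2c and from -0.352 to 0.0644 for Ascl2 in KH at 144 h against 72 h, from -0.0814 to 0.153 for Ascl2 in DNMT3ABKO at 72 h, from -0.101 to 0.170 for Krt18 in DNMT3ABKO at 144 h against 72 h, and from -0.0926 to 0.130 for Krt8 in the difference in the 144 h response. The cause was not tested.

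Of all genes, 1425 were called between the lines at 0 h and 303 when only those groups were fitted (720 to 5039 without single libraries), and at 72 h 3029 and 5143 (1439 to 4559). The 72 h response differed for 823 genes, for 1259 with median-ratio scaling, 437 with those groups alone and 545 with the replicate block (365 to 2799). The 144 h response differed for 1351 genes, for 2099 with no filter, 2078 with scaling and 757 with those groups alone (785 to 3599). Between the lines at 144 h, 4166 genes were called and as few as 2362 without a single library. At 144 h against 72 h these were 3597 and 1762 in KH, and 4289 and 2600 in DNMT3ABKO. Median-ratio scaling moved the share called higher from 59.1% to 46.4% at 72 h against 0 h in KH, from 61.3% to 48.5% in DNMT3ABKO, and at 144 h against 72 h from 31.7% to 43.9% and from 32.3% to 47.6%. The DNMT3ABKO comparison of 72 h with 0 h has a median over all genes of 0.12 on the deposited scale, small beside the changes called in the members.

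The study handled the time points of a replicate side by side, but whether equal numbers mark such sets is not stated for these libraries. Deviations from the group means of equal numbers correlated between -0.10 and 0.10, which does not settle it. The replicate block ended the calls of Ascl2 in the 72 h response (adjusted p = 0.0618 by limma) and of Tfap2c in the 144 h response (0.0721) and no other member's. Depth is unknown, so for Elf5, Cdx2 and Hand1 no counting error can be given, and with 2 libraries a group, 1 line a genotype and no untreated culture over time, small differences and their source could not be resolved.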
